A study of Mus musculus with 9 samples.

Results

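Samd11, Mtmr7, Osgin2, St8sia4 and Ttc39c are 5 mouse genes whose mean level in tumour monocytic myeloid-derived suppressor cells was above that of WT cells both with and without SCG2. They were picked by symbol from a table of 54532 genes because their mean FPKM was higher than WT in SCG2 knockout and in LILRB4 libraries. FPKM relates the fragments of a gene to its length and to the depth of the library, so levels can be set side by side between genes. All 5 symbols were found once, and all 5 were in the table of 9877 counted genes. All 5 passed the filter on low counts, which removed no gene of that table. The counted genes had 100 or more counts in LILRB4 replicates 1 and 3, so being among them is no check on the 5. The values against WT chose the genes and are given here as a description with no test. For these 5 genes only SCG2 knockout against LILRB4 is tested, while their relatives and neighbours in the count table were tested in all 3 comparisons. Both groups of the tested comparison took part in the choice through their means against WT.

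Monocytic myeloid-derived suppressor cells are immature monocyte-like cells that restrain T cells, here sorted from tumours of mice bearing MC38, a colon carcinoma line. Poly-A RNA was sequenced in 9 libraries. The 3 SCG2 knockout libraries had the genotype LILRB4+/+ SCG2-/-, the 3 LILRB4 libraries had LILRB4+/+ and the 3 remaining libraries were WT. Age, the nature of the LILRB4 allele, the sorting gate and the mouse behind each library are not in the labels. P-values therefore reflect only how far these 9 libraries spread, and that spread may be technical. Every group carried the tumour, and none came from tumour-free mice.

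Counts summed to between 14501163 and 27219202 per library. Scg2, the deleted gene, had 0 recovered counts (whole counts computed back from the deposited FPKM) in all 3 SCG2 knockout libraries, 1, 0 and 0 in LILRB4 and 1, 0 and 0 in WT, so at this depth the knockout label could not be checked. A count of 0 allows up to 3 counts, or 0.107 to 0.200 CPM (a count scaled to library size), a limit for counting error only. Lilrb4a, the mouse gene closest in name to LILRB4, had 693, 762 and 831 CPM in SCG2 knockout, 1400, 812 and 844 CPM in LILRB4, and 735, 256 and 389 CPM in WT libraries. Lilr4b, a gene of similar name, was more abundant, with 1895, 1885 and 1980 CPM in SCG2 knockout libraries. It had 3404, 1793 and 2474 CPM in LILRB4, and 1602, 766 and 818 CPM in WT libraries. All 10 fixed monocyte markers, Csf1r and Ccr2 among them, were detected in every library. All 23 markers of T and NK cells were detected in every library too. Their summed level was 1402, 2475 and 2362 CPM in SCG2 knockout, 2633, 349 and 1935 CPM in LILRB4 and 1316, 339 and 505 CPM in WT replicates 1 to 3. LILRB4 replicate 2 and WT replicates 2 and 3 thus stood low in transcripts of these lymphocytes.

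LILRB4 is an inhibitory receptor of myeloid cells that signals through cytoplasmic tyrosine motifs and recruited phosphatases. SCG2, secretogranin II, is a secreted granule protein of neuroendocrine cells, and the series title concerns its interaction with LILRB4. The 5 genes belong to different pathways. Mtmr7 encodes a myotubularin, a lipid phosphatase that removes the 3-phosphate from phosphatidylinositol 3-phosphate (PI3P), the lipid that marks early endosomes and autophagosomes. St8sia4 encodes a polysialyltransferase, a Golgi enzyme that extends chains of sialic acid on carrier proteins such as NCAM1, NRP2 and CCR7, and in dendritic cells polysialylated CCR7 takes part in chemokine sensing. Osgin2 is a relative of Osgin1, a growth inhibitor induced by oxidative stress. Samd11 encodes a nuclear protein with a SAM domain, studied in mouse photoreceptors, where it works with polycomb repressors. Ttc39c encodes a protein with tetratricopeptide repeats, a fold that binds other proteins.

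Promoter and 3′ UTR stretches are shown because they let the regulatory sequence of the members be compared. RefSeq windows on GRCm38.p6, with 250 bases before and 50 bases after the start, were found for 2 of the 5 genes, both on the minus strand. They are written 5′ to 3′ along the gene, and capitals mark letters that match one of the 11 motifs searched on both strands.
Samd11, chr4:156255293-156255592: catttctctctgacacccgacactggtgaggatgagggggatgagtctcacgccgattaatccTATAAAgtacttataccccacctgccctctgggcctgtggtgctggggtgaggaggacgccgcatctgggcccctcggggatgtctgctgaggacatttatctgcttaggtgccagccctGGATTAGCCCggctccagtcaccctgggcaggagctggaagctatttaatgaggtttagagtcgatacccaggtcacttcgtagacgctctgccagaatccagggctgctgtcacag
St8sia4, chr1:95667545-95667844: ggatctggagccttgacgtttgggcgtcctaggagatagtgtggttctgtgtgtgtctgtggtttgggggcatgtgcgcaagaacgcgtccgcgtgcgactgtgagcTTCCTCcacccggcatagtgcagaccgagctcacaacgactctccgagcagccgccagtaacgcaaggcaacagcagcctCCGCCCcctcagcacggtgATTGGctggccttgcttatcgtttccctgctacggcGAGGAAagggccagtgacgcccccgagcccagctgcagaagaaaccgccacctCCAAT
The Samd11 window held the TATA letters TATAAA, first base at -187 from the start, which 6.85% of 8496 promoters of expressed genes held. It also held the NF-kB letters, GGG and CC with 5 bases between them, on the reverse strand at -67, as did 68.8% of promoters. The St8sia4 window held GAGGAA, the PU.1 letters, at -143 (reverse strand) and at -8, found in 27.2% of promoters. It also held GGGCGG (SP1, 66.3% of promoters) at -63 and CCAAT (NF-Y, 38.5%) at -44, both on the reverse strand, and CCAAT again at 46. No motif was in both windows. The remaining motifs, TGANTCA (AP-1), TTCNNNGAA (STAT), GAAA and GAAA with 2 bases between them (IRF), TGACNNNGC (NRF2), TTGCNNAA (C/EBP) and CACGTG (E-box), are in neither window, and matches are descriptions of letters only. GC content was 56.7% in the Samd11 window, with a CpG observed to expected ratio of 0.416, against 61.3% and 0.780 in St8sia4. The medians over the 8496 promoters were 61.0% and 0.779.

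The 3′ ends differed as well. TATTTAT, a core of AU-rich elements that bind RNA decay factors, was searched on the transcribed strand of 3′ UTRs of the longest coding transcript in GENCODE M21. It was in 26.9% of 10728 expressed genes. Osgin2 held 1 copy, at base 493 of an 847-base UTR, and St8sia4 held 2, at bases 3041 and 3655 of 4000. Capitals mark the 7 letters in these 25-base stretches.
Osgin2, 493: ctcaggtttTATTTATtttgaaact
St8sia4, 3041: aaagtaattTATTTATagttgtgcc
St8sia4, 3655: ctggcaatgTATTTATttaaattgc
The shorter ATTTA occurred 9 times in the Osgin2 UTR, or 10.6 per kilobase, above 99.0% of expressed genes, whose median was 1.18 per kilobase. It occurred 13 times in St8sia4 (3.25 per kilobase), 4 times in the 2100 bases of Ttc39c, once in the 450 bases of Mtmr7 and 0 times in the 758 bases of Samd11. Ttc39c held TATTTAT 2 times, Mtmr7 and Samd11 0 times.

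Samd11 (ENSMUSG00000096351, chromosome 4, 156246966 to 156255657, minus strand, 11 exons) had the lowest FPKM of the set and the highest ratios to WT. Its FPKM was 2.50, 3.22 and 3.16 in SCG2 knockout, 3.19, 2.96 and 3.36 in LILRB4, and 1.12, 0.603 and 0.840 in WT libraries. All 6 LILRB4+/+ libraries lay above every WT library, and the 2 LILRB4+/+ genotypes overlapped. Means were 2.96 ± 0.400 in SCG2 knockout, 3.17 ± 0.201 in LILRB4 and 0.853 ± 0.258 in WT (SD, n = 3 each). The log2 fold change against WT was 1.82 (SE 0.26) in SCG2 knockout and 1.86 (SE 0.26) in LILRB4. These values rest on 164 to 198 counts in SCG2 knockout, 188 to 319 in LILRB4 and 52 to 86 in WT libraries.

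Mtmr7 (ENSMUSG00000039431, chromosome 8, 40551095 to 40634797, minus strand, 14 exons) had FPKM of 3.91, 3.75 and 3.47 in SCG2 knockout, 4.96, 4.37 and 5.39 in LILRB4, and 2.11, 1.67 and 2.06 in WT libraries. The 3 groups formed 3 separate steps, with every SCG2 knockout library below every LILRB4 library and above every WT library. Means were 3.71 ± 0.218 in SCG2 knockout, 4.90 ± 0.511 in LILRB4 and 1.95 ± 0.242 in WT (SD, n = 3 each). Its log2 fold change against WT was 0.96 (SE 0.17) in SCG2 knockout and 1.30 (SE 0.17) in LILRB4.

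Osgin2 (ENSMUSG00000041153, chromosome 4, 15997121 to 16013888, minus strand, 6 exons) was the most abundant of the 5 in SCG2 knockout, LILRB4 and WT means. Its FPKM was 16.3, 19.0 and 14.2 in SCG2 knockout, 24.6, 21.5 and 23.0 in LILRB4, and 10.1, 11.2 and 9.71 in WT libraries. As for Mtmr7, the SCG2 knockout libraries filled the gap between the other two groups without overlap. Means were 16.5 ± 2.41 in SCG2 knockout, 23.0 ± 1.54 in LILRB4 and 10.3 ± 0.768 in WT (SD, n = 3 each). The log2 fold change against WT was 0.70 (SE 0.14) in SCG2 knockout and 1.13 (SE 0.14) in LILRB4.

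St8sia4 (ENSMUSG00000040710, chromosome 1, 95587682 to 95667571, minus strand, 5 exons) had FPKM of 3.79, 4.46 and 3.77 in SCG2 knockout, 5.36, 3.60 and 4.36 in LILRB4, and 2.37, 2.13 and 2.40 in WT libraries. The LILRB4 libraries spanned the SCG2 knockout ones on both sides, and WT lay below all of them. Means were 4.01 ± 0.392 in SCG2 knockout, 4.44 ± 0.884 in LILRB4 and 2.30 ± 0.150 in WT (SD, n = 3 each). Its log2 fold change against WT was 0.83 (SE 0.17) in SCG2 knockout and 0.92 (SE 0.17) in LILRB4. The FPKM denominator used a length of 20091 bases, whereas the longest coding transcript has 5390. Over that transcript the mean of the 9 libraries would be 13.3 instead of 3.58 FPKM, so its rank among the 5 genes depends on the length taken.

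Ttc39c (ENSMUSG00000024424, chromosome 18, 12599926 to 12737050, plus strand, 14 exons) was the member whose mean was higher in SCG2 knockout than in LILRB4 libraries. Its FPKM was 13.6, 17.5 and 14.9 in SCG2 knockout, 14.4, 9.30 and 13.6 in LILRB4, and 9.19, 8.20 and 7.94 in WT libraries. LILRB4 replicate 2 stood next to WT replicate 1, so LILRB4 and WT were apart by a narrow margin, while SCG2 knockout stood clear of WT. Means were 15.3 ± 2.01 in SCG2 knockout, 12.4 ± 2.75 in LILRB4 and 8.44 ± 0.659 in WT (SD, n = 3 each). The log2 fold change against WT was 0.89 (SE 0.19) in SCG2 knockout and 0.53 (SE 0.19) in LILRB4.

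**Figure D1:**
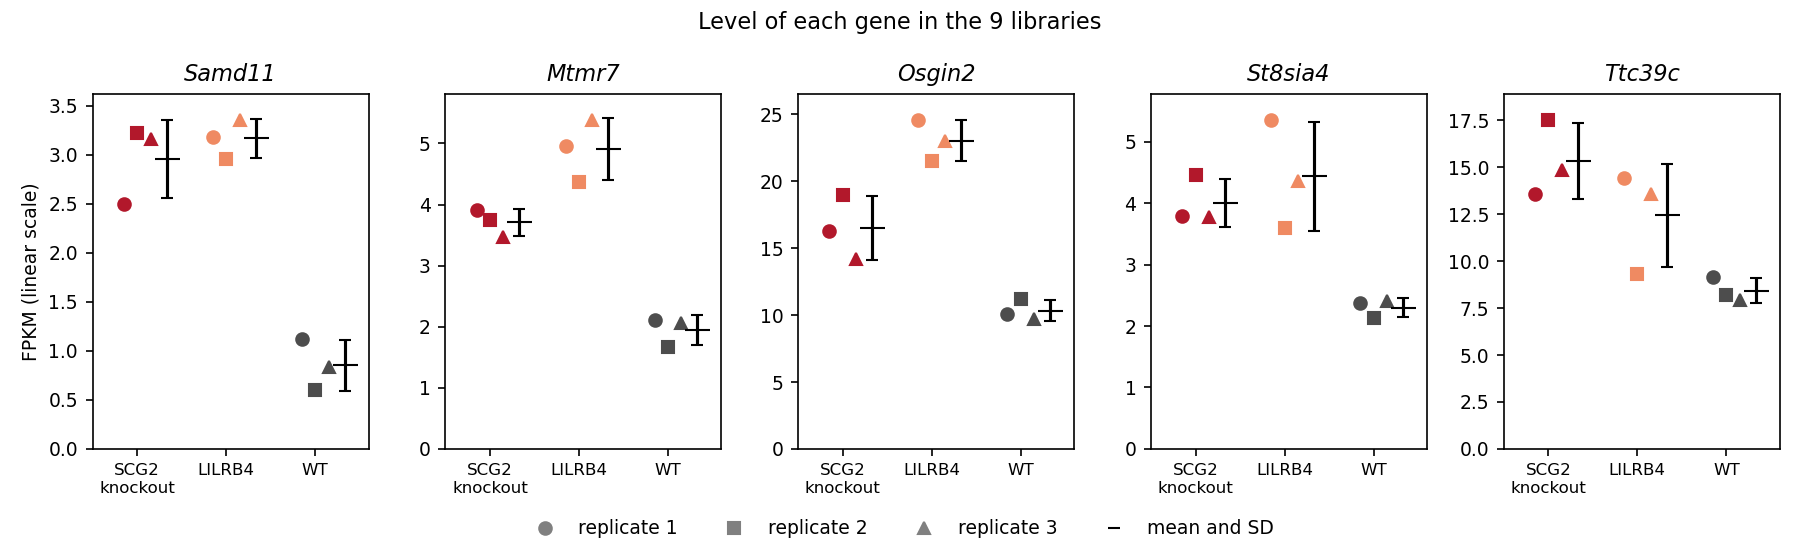
FPKM on a linear scale (vertical axes, each from 0) of the 5 genes in the SCG2 knockout, LILRB4 and WT libraries, with 1 symbol per replicate and the mean and SD beside each group. In each panel the 6 libraries of both LILRB4+/+ genotypes lie above the 3 WT libraries, by the narrowest margin in Ttc39c, where LILRB4 replicate 2 is at 9.30 and WT replicate 1 at 9.19 FPKM.

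By the files' lengths, Osgin2 and Ttc39c were the higher pair and Samd11 the lowest. In SCG2 knockout libraries Osgin2 (14.2 to 19.0 FPKM) and Ttc39c (13.6 to 17.5) overlapped, as did St8sia4 and Mtmr7. The mean over all 9 libraries put Osgin2 at the 72.0th percentile of 10747 protein-coding genes with a mean FPKM of at least 1, Ttc39c at the 63.3rd, St8sia4 at the 26.4th, Mtmr7 at the 25.9th and Samd11 at the 15.3rd. All 6 LILRB4+/+ libraries lay above all 3 WT libraries in 5 of 5 genes and in 4.06% of 12425 genes with a mean FPKM of at least 1. The genes were chosen on these groups, so nothing is read from that difference.

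The smaller of the 2 mean ratios to WT, which set membership, was 1.47 in Ttc39c, 1.60 in Osgin2, 1.74 in St8sia4, 1.90 in Mtmr7 and 3.47 in Samd11. Both means were above WT in 36.2% of the 12425 genes, so the rule is met by many genes outside the set. Among listed relatives of the 5 genes, Neu1 lay just inside (1.002 for SCG2 knockout and 1.27 for LILRB4) and St3gal3 just outside (0.989 and 1.11).

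The question of SCG2 knockout against LILRB4 is whether the level depends on SCG2 when LILRB4+/+ is held constant. None of the 5 genes passed edgeR's quasi-likelihood test with Benjamini-Hochberg adjustment over all 9877 genes, and neither did any other gene, so that 0.0% were called higher and 0.0% lower. Without adjustment 1092 genes (11.1%) had an edgeR p under 0.05, of which 610 (6.18%) were lower and 482 (4.88%) were higher. DESeq2 called 175 (1.77%) after adjustment, 162 lower and 13 higher, with none of the 5 among them. Tested genes had 100 or more counts in LILRB4 replicates 1 and 3, so these directions may be tilted towards LILRB4. The intervals below give the uncertainty of the difference in these 3 against 3 libraries, with no allowance for the choice of genes. That choice left out any gene whose SCG2 knockout mean was not above WT.

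Osgin2 had the estimate farthest from 0, with a log2 fold change of -0.42 (SE 0.14, 95% interval -0.73 to -0.12, edgeR unadjusted p = 0.0111, adjusted p = 0.335). In linear terms that is 0.745 of the LILRB4 level, with an interval of 0.602 to 0.921. Mtmr7 was next, at -0.35 (SE 0.17, interval -0.71 to 0.02, edgeR adjusted p = 0.466), a fold of 0.786 with an interval of 0.609 to 1.01. In both genes all 3 SCG2 knockout libraries were lower than all 3 LILRB4 libraries, an ordering found in 9.78% of the 12425 genes. Of the 5 genes, Osgin2 was the 1 with an unadjusted p under 0.05, and it is one of the 610 lower genes.

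Samd11 had a log2 fold change of -0.04 (SE 0.25, interval -0.59 to 0.51, edgeR adjusted p = 0.972). Its linear interval, 0.665 to 1.42 of the LILRB4 level, is the widest of the 5, and its counts are the lowest. St8sia4 had -0.09 (SE 0.16, interval -0.45 to 0.27, edgeR adjusted p = 0.883), or 0.938 of the LILRB4 level (0.731 to 1.21). Neither interval shows that the genotypes are alike. The signs of these 2 estimates turned with single libraries, to 0.045 in Samd11 without SCG2 knockout replicate 1 and to 0.032 in St8sia4 without LILRB4 replicate 1.

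Ttc39c had a positive estimate of 0.36 (SE 0.19, interval -0.05 to 0.77, edgeR adjusted p = 0.497), a fold of 1.28 with an interval of 0.963 to 1.70. Without LILRB4 replicate 2, which was low in T and NK cell markers, it was 0.17. The groups overlapped in Ttc39c, and no member had all SCG2 knockout libraries above all LILRB4 libraries (6.49% of the 12425 genes did). The median log2 fold change of all tested genes in this comparison was 0.03.

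**Figure D2:**
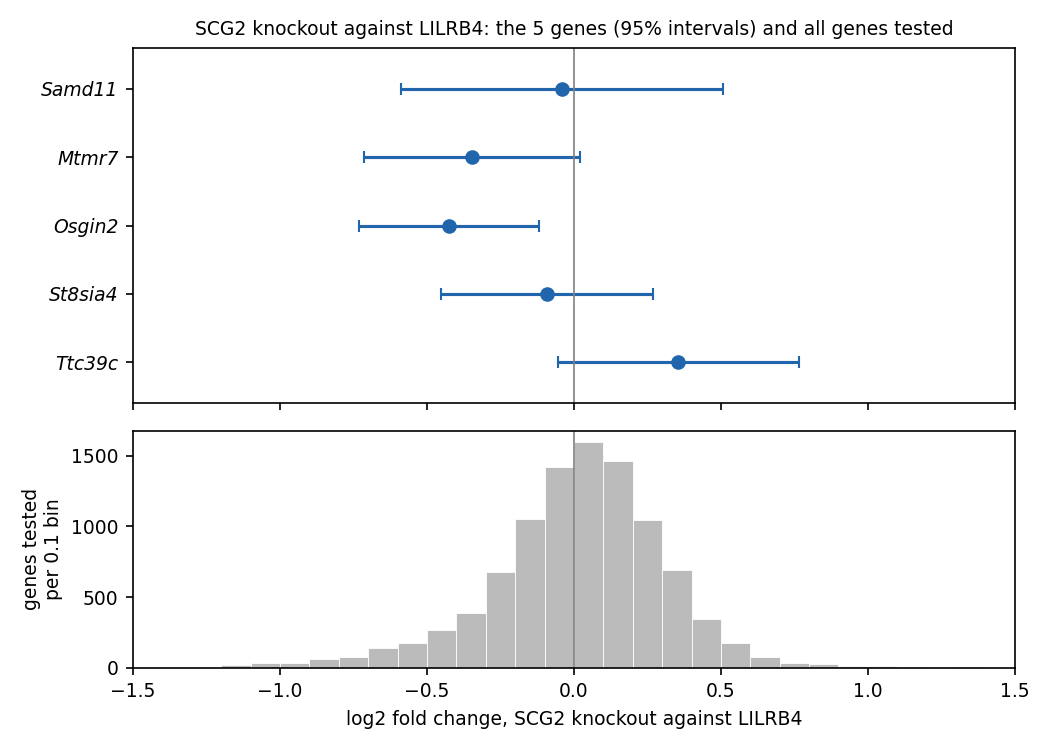
Log2 fold change of SCG2 knockout against LILRB4 (horizontal axis) for the 5 genes with 95% intervals (top) and the number of all tested genes per bin of 0.1 (bottom; 15 of 9877 genes lie outside the axis). The estimates run between -0.42 in Osgin2 and 0.36 in Ttc39c, and the intervals of all but Osgin2 include 0.

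Another way to put the same means is the part of the LILRB4 excess over WT that SCG2 knockout libraries had. On FPKM means this was 91.0% in Samd11, 79.8% in St8sia4, 59.6% in Mtmr7, 48.6% in Osgin2 and 172% in Ttc39c. These shares have no interval of their own and carry the error of 3 group means, so their order is a description. Osgin2 and Mtmr7 had means between those of LILRB4 and WT, and Samd11 and St8sia4 had means close to LILRB4.

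T and NK cell transcripts moved with the groups, and in bulk samples fewer cells of a type and less RNA per cell cannot be told apart. All 23 of 23 T and NK markers had a higher mean in both SCG2 knockout and LILRB4 than in WT, and 20 of 23 were higher in SCG2 knockout than in LILRB4. The summed range was 1402 to 2475 CPM in SCG2 knockout, 349 to 2633 CPM in LILRB4 and 339 to 1316 CPM in WT, with no marker at 0 in all libraries. Some libraries had like sums. LILRB4 replicate 2 (349 CPM) and WT replicate 2 (339 CPM) had an FPKM ratio of 4.91 for Samd11, 2.61 for Mtmr7, 1.92 for Osgin2, 1.69 for St8sia4 and 1.13 for Ttc39c. SCG2 knockout replicate 1 (1402 CPM) and WT replicate 1 (1316 CPM) had ratios of 2.24, 1.85, 1.61, 1.60 and 1.48 in the same gene order. Each pair is 1 library against 1, has no replicate check and matches on this sum alone. Mitochondrially encoded mRNAs, for one, summed to 19315 CPM in LILRB4 replicate 2 against 9968 CPM in WT replicate 2, and to 4870 CPM in SCG2 knockout replicate 1 against 9722 CPM in WT replicate 1.

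LILRB4 replicate 2 was the lowest LILRB4 library for all 5 genes and was above every WT library in each, by the narrowest margin in Ttc39c. The part of T and NK transcripts in the differences of the 5 genes was not tested.

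**Figure D3:**
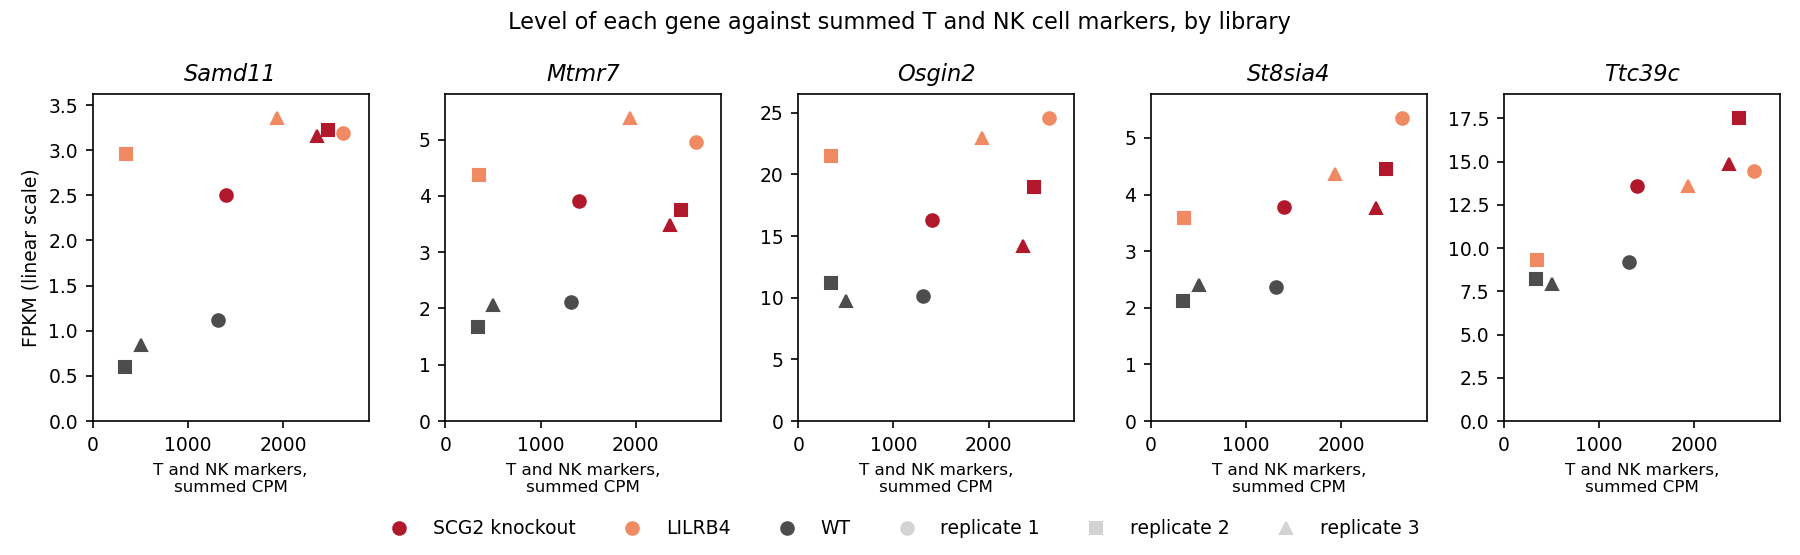
FPKM of each gene (vertical axes, linear) against the summed level of 23 T and NK cell markers in CPM (horizontal axes), with 1 point per library, colour for the group and shape for the replicate. LILRB4 replicate 2, at 349 CPM, is the lowest LILRB4 point in every panel, and in Ttc39c it lies next to the WT points.

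Monocyte markers summed to 2135 to 3819 CPM in SCG2 knockout, 4511 to 7265 CPM in LILRB4 and 2845 to 6809 CPM in WT, and 0 of 10 had a higher mean in SCG2 knockout than in LILRB4. Mitochondrially encoded mRNAs, read as a sign of RNA quality, summed to 4870 to 10375 CPM in SCG2 knockout, 11246 to 19315 CPM in LILRB4 and 6487 to 9968 CPM in WT. Osgin2 and Mtmr7 were lower in SCG2 knockout than in LILRB4, as were these 2 lists. Unlike both genes, the 2 lists had lower mean sums in SCG2 knockout (3060 and 7983 CPM) than in WT (4623 and 8726 CPM). Mean sums of endothelial, B cell, dendritic cell and carcinoma markers were highest in LILRB4 and lowest in WT, as were the means of both genes. By library, unlike in both genes, LILRB4 overlapped SCG2 knockout and WT in each of these lists. The carcinoma order rested on LILRB4 replicate 2 (204 CPM). LILRB4 replicates 1 and 3 (94.9 and 86.6 CPM) lay below every WT library for that list. Neutrophil markers were also lower in SCG2 knockout than in LILRB4. The part of any list in the order of Osgin2 and Mtmr7 was not tested. All 5 of 5 endothelial markers had higher means in SCG2 knockout and LILRB4 than in WT, at summed ranges of 49.7 to 59.8, 41.5 to 87.3 and 29.7 to 42.1 CPM for SCG2 knockout, LILRB4 and WT. All 5 of 5 B cell markers also had higher means in both than in WT, with summed ranges of 3.76 to 5.87 CPM in SCG2 knockout, 3.02 to 16.8 CPM in LILRB4 and 1.47 to 5.43 CPM in WT. Mast cell and basophil markers summed to 38.0 to 66.4 CPM in SCG2 knockout, 7.77 to 55.9 CPM in LILRB4 and 7.13 to 23.0 CPM in WT. Most of the SCG2 knockout sums was Kit alone (36.2, 62.7 and 54.4 CPM). Of this list 5 of 5 had a higher mean in SCG2 knockout than in LILRB4, as Ttc39c did. The mean sum was 54.4 CPM in SCG2 knockout, 32.3 CPM in LILRB4 and 15.4 CPM in WT, the order of Ttc39c. Of the 5 markers 2, Kit among them, had a higher mean in LILRB4 than in WT. Those other than Kit had at most 2.43 CPM in any library. The part of this list in the Ttc39c values was not tested. Carcinoma epithelium markers overlapped between all groups (81.6 to 156 CPM in SCG2 knockout, 86.6 to 204 CPM in LILRB4, 99.98 to 123 CPM in WT). Neutrophil markers summed to 168 to 228 CPM in SCG2 knockout, 263 to 397 CPM in LILRB4 and 152 to 252 CPM in WT, and dendritic cell markers to 73.3 to 95.3 CPM in SCG2 knockout, 36.2 to 119 CPM in LILRB4 and 41.9 to 70.8 CPM in WT. Fibroblast markers overlapped between all groups (2575 to 3501 CPM in SCG2 knockout, 2086 to 2748 CPM in LILRB4, 2476 to 3382 CPM in WT). Of these 8 of 9 had a higher mean in SCG2 knockout than in LILRB4, and 1 of 9 had a higher mean in LILRB4 than in WT.

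Each gene was then set beside its family and partners. Of the 9 lists 66 genes were tested. In SCG2 knockout against LILRB4, 0 of them passed edgeR's test, as for all genes. An unadjusted p under 0.05 was found in 9 (13.6%, against 11.1% of all tested genes), and DESeq2 called 1, Cd33 (1.52%, against 1.77%). In SCG2 knockout against WT, 0 passed, as for all genes (0.0%). There 8 had an unadjusted p under 0.05 (12.1%, against 14.6% of all tested genes, which split into 8.47% higher and 6.11% lower), and DESeq2 called 2, Samd1 and Slc7a11 (3.03%, against 0.931%).

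In LILRB4 against WT 3 listed genes passed edgeR's test (4.55%), all of them higher (St3gal1, Cd33 and Slc7a11). Of all tested genes 1.73% passed as higher and 0.516% as lower. An unadjusted p under 0.05 was found in 20 listed genes (30.3%, against 22.6% of all tested genes), and DESeq2 called 10 (15.2%, against 9.36%). The number of calls depended on the libraries fitted. Of all genes 0 passed without WT replicate 2, 0 without WT replicate 3 and 32 without WT replicate 1. Without LILRB4 replicates 1, 2 and 3 it was 8, 689 and 14. Leaving out a library also makes its group smaller, and the part of that in the losses was not tested.

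Of the myotubularins 13 of 13 relatives of Mtmr7 were tested and 0 passed, with median log2 fold changes of 0.01 in SCG2 knockout against LILRB4, 0.08 in SCG2 knockout against WT and 0.18 in LILRB4 against WT. The medians over all genes in these comparisons were 0.03, 0.003 and -0.02. Mtmr6, another PI3P phosphatase, was at 26.9 ± 2.37 FPKM in SCG2 knockout, 35.3 ± 5.05 in LILRB4 and 25.9 ± 3.53 in WT (SD, n = 3 each), with a log2 fold change of -0.34 in SCG2 knockout against LILRB4 (edgeR adjusted p = 0.451). Mtmr11, which lacks phosphatase activity, had the smallest p of the list there, with a log2 fold change of 0.81 (edgeR adjusted p = 0.334) and of -0.88 in LILRB4 against WT (edgeR adjusted p = 0.091), the sign opposite to that of Mtmr7. Mtmr9, the inactive partner that binds MTMR7, had 0.12 in SCG2 knockout against LILRB4 and -0.23 in LILRB4 against WT and passed neither. Of 14 further genes of PI3P metabolism 12 were tested and 0 passed. Among them Eea1, an endosomal tether that binds PI3P, had a log2 fold change of 0.72 in LILRB4 against WT (edgeR adjusted p = 0.071).

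Of 19 other sialyltransferases 9 were tested. In LILRB4 against WT 1 rose and 8 had a positive estimate. In SCG2 knockout against LILRB4 8 had a negative one, with a list median of -0.30. These directions may be tilted towards LILRB4, since tested genes had 100 or more counts in LILRB4 replicates 1 and 3. St3gal6, for one, had 1.30 and 1.41 FPKM in those 2 libraries, against 0.317 to 0.680 FPKM in WT. St3gal1, which caps O-linked glycans with sialic acid, rose in LILRB4 against WT by 0.99 (SE 0.22, edgeR adjusted p = 0.046), with 40.1 ± 10.4 FPKM in SCG2 knockout, 59.9 ± 9.37 in LILRB4 and 29.6 ± 6.49 in WT (SD, n = 3 each). The other members of the alpha-2,8 branch to which St8sia4 belongs were scarce: the mean FPKM over all libraries was 0.282 for St8sia1 and 0.067 for St8sia6, 0.002 for each of St8sia2 and St8sia3, and St8sia5 was listed at 0. St8sia4 was thus the main transcript of that branch by this measure.

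Of 10 genes that make, move or remove sialic acid 6 were tested and 0 passed, with medians within 0.09 of 0 in all 3 comparisons. Cmas, which activates sialic acid for transfer, had 0.45 in LILRB4 against WT (edgeR adjusted p = 0.131). Of 5 carriers of polysialic acid 4 were tested and 0 passed. Ncam1, the adhesion molecule NCAM, had a log2 fold change of 0.49 in SCG2 knockout against LILRB4 (edgeR adjusted p = 0.482). Ccr7, a chemokine receptor of lymphocytes and mature dendritic cells, had 101 ± 33.7 FPKM in SCG2 knockout, 88.8 ± 55.0 in LILRB4 and 50.7 ± 15.7 in WT (SD, n = 3 each), and 0.78 in LILRB4 against WT (edgeR adjusted p = 0.422).

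Siglecs are receptors that read sialic acid, and 4 of 9 were tested. Cd33 rose in LILRB4 against WT by 1.15 (SE 0.20, edgeR adjusted p = 0.027), with 5.18 ± 1.30 FPKM in SCG2 knockout, 12.4 ± 2.01 in LILRB4 and 5.46 ± 0.800 in WT (SD, n = 3 each). Its log2 fold change in SCG2 knockout against LILRB4 was -1.20 (edgeR adjusted p = 0.204). Siglecg, which B cells also express, had -1.03 in SCG2 knockout against LILRB4 (edgeR adjusted p = 0.301) and 1.28 in LILRB4 against WT (edgeR adjusted p = 0.052). Summed B cell markers averaged 4.69 CPM in SCG2 knockout, 10.2 CPM in LILRB4 and 2.82 CPM in WT. LILRB4 replicates 1 to 3 had sums of 10.6, 3.02 and 16.8 CPM. The part of B cell transcripts in the Siglecg values was not tested. The Cd33 mean in SCG2 knockout was near WT, unlike that of St8sia4, a difference that was not tested. Siglech had 24.0, 17.4 and 16.5 CPM in SCG2 knockout, 42.2, 2.51 and 39.1 CPM in LILRB4, and 20.1, 1.96 and 6.85 CPM in WT libraries. Of the 4 tested, 2 were positive and 2 negative in SCG2 knockout against WT. List medians were -0.93 in SCG2 knockout against LILRB4, 0.10 in SCG2 knockout against WT and 1.21 in LILRB4 against WT. These medians may be tilted towards LILRB4, since tested genes had 100 or more counts in LILRB4 replicates 1 and 3. Siglece and Siglecf, at mean FPKM of 3.08 and 1.53, were not tested.

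Of 10 genes around OSGIN1 and the oxidative stress factor NRF2 9 were tested. Slc7a11, the cystine importer subunit, rose in LILRB4 against WT by 1.64 (SE 0.24, edgeR adjusted p = 0.021), with 28.1 ± 6.59 FPKM in SCG2 knockout, 41.7 ± 10.9 in LILRB4 and 13.2 ± 2.34 in WT (SD, n = 3 each). Osgin1 itself had log2 fold changes of 0.06 in SCG2 knockout against LILRB4, 0.84 in SCG2 knockout against WT and 0.78 in LILRB4 against WT (edgeR adjusted p = 0.24 in the last). Txnrd1, a thioredoxin reductase, had 0.70 in LILRB4 against WT (edgeR adjusted p = 0.086), and Nfe2l2, which encodes NRF2, had -0.67 in SCG2 knockout against LILRB4 (edgeR adjusted p = 0.377).

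Of 11 SAM domain and polycomb relatives of Samd11 8 were tested and 0 passed, with a median of 0.00 in SCG2 knockout against LILRB4. Samd1, a reader of unmethylated CpG islands, had a sign opposite to that of Samd11, at -0.80 in SCG2 knockout against WT (edgeR adjusted p = 0.317) and -0.75 in LILRB4 against WT (edgeR adjusted p = 0.070). Samd7, its partner in photoreceptors, was listed at 0. Ttc39b was the only tested relative of Ttc39c, with -0.05 in SCG2 knockout against LILRB4 and 0.61 in LILRB4 against WT, passing neither.

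Likeness of pattern was measured as Pearson r of log2(FPKM + 0.1) over the 9 libraries among 12424 genes with a mean FPKM of at least 1, as a description. The libraries share their depth and group structure, so r of deviations from the group means is given after it. Nearest to Samd11 were Bcl2l11, which encodes the death inducer BIM (0.964 and 0.723), Sytl1, a vesicle transport protein (0.963 and 0.682), and Rbm15, an RNA-binding subunit of the m6A writer (0.962 and 0.779). Nearest to Mtmr7 were Egr3, an immediate-early factor (0.990 and 0.833), Nfkbiz, an atypical IkB protein (0.978 and 0.753), and Itpkc, an inositol trisphosphate kinase (0.976 and 0.905).

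Nearest to Osgin2 were Cry1, a circadian repressor (0.985 and 0.925), Stx11, a SNARE protein of cytotoxic granule release (0.978 and 0.832), and Ptgs2, which encodes the prostaglandin enzyme COX2 (0.974 and 0.773). Ptgs2 was far more abundant than Osgin2, at 658, 1081 and 376 FPKM on average in SCG2 knockout, LILRB4 and WT libraries, with the same order of groups. Nearest to St8sia4 were Vps54, a subunit of the endosome to Golgi tether (0.986 and 0.955), Bcl2l11 again (0.978 and 0.835), and Anxa11, an annexin (0.975 and 0.902).

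Nearest to Ttc39c was a T cell gene, Trbj1-5, a joining segment of the T cell receptor beta chain (0.981 and 0.944). Its FPKM was 47.0, 80.6 and 69.5 in SCG2 knockout, 62.1, 7.58 and 31.7 in LILRB4, and 10.3, 6.65 and 6.80 in WT libraries. It was low in the same LILRB4 library as Ttc39c. The long noncoding RNA Gm33104 (0.965 and 0.922) and Tmem64, a membrane protein (0.964 and 0.936), came next. Among the 5 genes themselves, pairwise r was 0.649 to 0.949 over the libraries, while r of deviations from group means ran between -0.18 for Samd11 with Osgin2 and 0.861 for St8sia4 with Ttc39c.

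The loci were checked for reads that could belong to a neighbour, since the strand setting of the counting is not given in the sources used here. The 3′ end of Samd11 overlaps Noc2l on the opposite strand by 651 bases, 7.49% of the gene. Noc2l, a nucleolar repressor protein, had 2444 to 4088 recovered counts per library and log2 fold changes of 0.19 in SCG2 knockout against LILRB4, 0.22 in SCG2 knockout against WT and 0.03 in LILRB4 against WT, passing none. Without strand, reads of the 2 genes in the overlap cannot be told apart. The antisense gene Gm47252 inside Samd11 had 1 to 15 recovered counts.

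Mtmr7 overlaps Vps37a, an ESCRT subunit, by 40 bases, and Vps37a had 0.06 in SCG2 knockout against LILRB4, 0.19 in SCG2 knockout against WT and 0.13 in LILRB4 against WT. On the other side of Vps37a, Cnot7 had -0.01, -0.11 and -0.10 in the same 3 comparisons. Osgin2 contains the processed pseudogene Gm11870 on its own strand, with 18 to 103 recovered counts per library. Its mean FPKM was 2.25 in SCG2 knockout, 3.08 in LILRB4 and 1.05 in WT. Pseudogene and host could share reads. Nbn, 4532 bases from Osgin2, had 0.10, 0.06 and -0.04.

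Ripk2, the kinase downstream of NOD receptors and 108845 bases beyond Osgin2, rose in LILRB4 against WT by 0.89 (SE 0.14, edgeR adjusted p = 0.0224). It had -0.45 in SCG2 knockout against LILRB4 (edgeR adjusted p = 0.328) and 0.45 in SCG2 knockout against WT (edgeR adjusted p = 0.317), the same signs as Osgin2. The nearest tested gene to St8sia4, Fam174a, lies 252398 bases away and had 0.08 in SCG2 knockout against LILRB4, -0.13 in SCG2 knockout against WT and -0.21 in LILRB4 against WT. Plekhn1 beside Samd11 had 0.13, 0.18 and 0.05. Around Ttc39c, Lama3 and Mir1948 had at most 11 and 3 recovered counts. Cabyr, 4274 bases away, had a mean FPKM of 1.18 in SCG2 knockout, 1.91 in LILRB4 and 0.687 in WT.

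**Figure D4:**
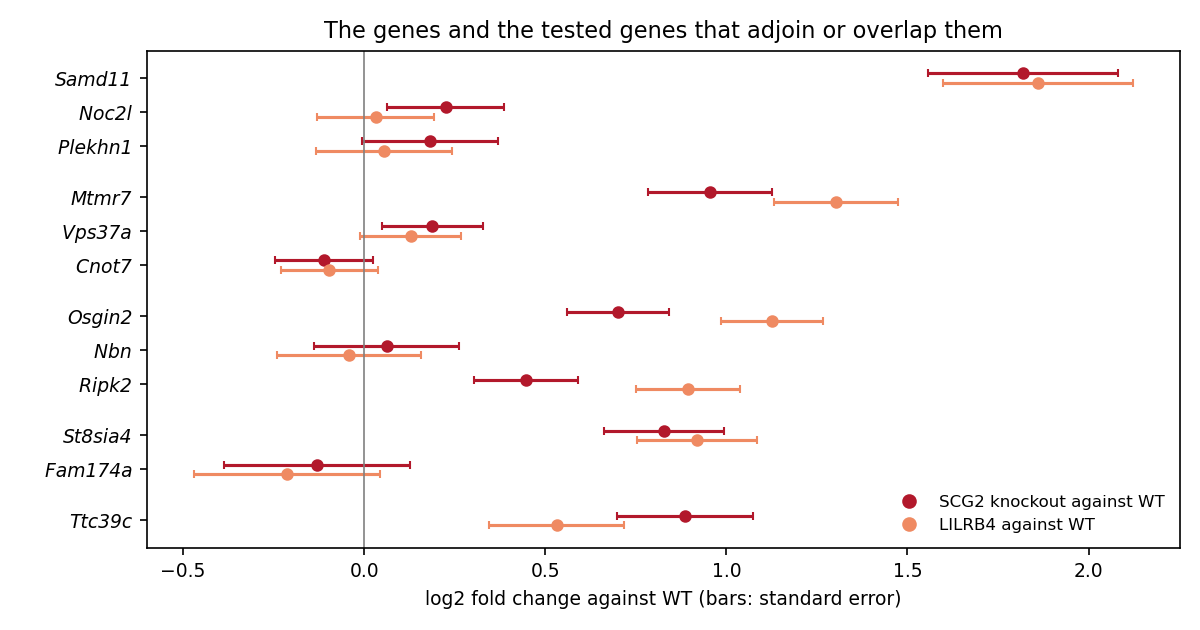
Log2 fold change against WT with its standard error (horizontal axis) of the 5 genes and the tested genes that adjoin or overlap them (rows), in SCG2 knockout (dark) and LILRB4 (light) libraries. Ripk2 is the neighbour that stands away from 0, at 0.45 in SCG2 knockout and 0.89 in LILRB4, and the others lie between -0.21 and 0.22.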

How the data were processed

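Poly-A RNA of 9 libraries was prepared strand-specifically, per the labels' protocols, and the submitters' processing notes name featureCounts 1.5.0-p3 beside HISAT2 2.0.5. For build, annotation and strand setting, the choice is not given in the sources used here. Positions of genes equalled GENCODE M21 (GRCm38) for 53499 of 54409 identifiers (98.3%), and those of 4 of the 5 genes. Ttc39c differed and is quoted as in the files. The authors deposited 2 tables: raw counts for 9877 genes and FPKM with gene lengths for 54532 genes. Every gene of the count table had 100 or more counts in LILRB4 replicates 1 and 3, so it favours genes expressed there. The deposited FPKM, times length and a constant of each library, were whole within 0.01 for 100% of values, and are called recovered counts. The tables differed in 47 genes, none of them among the 5. There were 0 unused sample columns.

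Deposited counts were fitted with edgeR 4.0.16 in R 4.3.3 (TMM, filterByExpr with a minimum count of 10, robust quasi-likelihood, all 9 libraries, 6 residual degrees of freedom), with Benjamini-Hochberg adjustment over 9877 genes and a threshold of 0.05. The scripts were tested on simulated counts. DESeq2 1.42.0 and limma 3.58.1 served as alternatives, with other scaling and filters and each library left out. The 5 genes and the lists were chosen with earlier results of these data known. Named genes were the 5, the 3 most like each by Pearson r, the overlapping and adjoining genes, and in each list those passing or the 2 of smallest p. Mtmr9, Osgin1, Samd7 and the alpha-2,8 sialyltransferases were named for their tie to a member after their values were seen. CPM values used recovered counts.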

Additional observations from a re-analysis of the deposited data

How the results depend on the processing

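In SCG2 knockout against LILRB4 none of the 5 genes passed under any of 18 alternatives, and 88 of 90 estimates kept their sign. The alternative without the filter on low counts repeated the main fit, since that filter removed no gene, so its agreement was fixed beforehand. The estimate of Samd11 turned to 0.045 without SCG2 knockout replicate 1 and that of St8sia4 to 0.032 without LILRB4 replicate 1. Leaving out each library gave -0.14 to 0.05 for Samd11, -0.44 to -0.29 for Mtmr7, -0.53 to -0.37 for Osgin2, -0.24 to 0.03 for St8sia4 and 0.17 to 0.44 for Ttc39c. Genes passing over the whole table numbered 0 by edgeR, 175 by DESeq2, and 0 to 1 with a library left out, the 1 without WT replicate 1. In LILRB4 against WT 222 genes passed by edgeR, 924 by DESeq2, 137 on recovered counts, 102 by limma on log2(FPKM + 1), 98 on log2(FPKM + 0.1), and 72 with only the 2 groups fitted. Leaving out a library gave 0 to 689 genes there, 689 without LILRB4 replicate 2, 58 without SCG2 knockout replicate 2, 32 without WT replicate 1, 14 and 8 without LILRB4 replicates 3 and 1, and 0 without WT replicate 2 or 3. In SCG2 knockout against WT 0 genes passed by edgeR and 92 by DESeq2. With log2(FPKM + 1), which shrinks low genes by construction, the LILRB4 against WT estimate was 1.18 for Samd11 and 1.001 for Mtmr7, and that of SCG2 knockout against WT 1.10 for Samd11, 0.68 for Mtmr7 and 0.60 for St8sia4. For the other changes the cause was not tested.

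Whether replicate numbers pair the libraries is not known from the labels. Deviations of same-numbered libraries from their group means correlated at -0.544, -0.303 and -0.177 between SCG2 knockout and LILRB4. They correlated at -0.293, -0.126 and 0.408 between SCG2 knockout and WT, and at 0.66, 0.539 and -0.455 between LILRB4 and WT. Libraries with different numbers were not compared, so these values cannot decide the pairing. With a replicate block 1 gene passed in LILRB4 against WT, and the estimates of SCG2 knockout against LILRB4 were -0.03 for Samd11, -0.34 for Mtmr7, -0.43 for Osgin2, -0.07 for St8sia4 and 0.37 for Ttc39c. Of the 15 most alike genes 12 stayed among the first 3 with a pseudocount of 1, and 0 did by deviations from group means. A window of 100 bases before the start kept 4 of 5 matches of motif and gene. Counts of 52 to 86 in WT libraries limit the precision of Samd11.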

Other observations

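Gene length sets where St8sia4 stands among the 5 genes. Over the longest coding transcript instead of the deposited length, the mean of the 9 libraries would be 34.8 FPKM for Osgin2, 14.3 for Ttc39c, 13.3 for St8sia4, 6.30 for Mtmr7 and 3.20 for Samd11. St8sia4 would then lie beside Ttc39c instead of beside Mtmr7, while differences between groups do not change. The deposited length of St8sia4 is 20091 bases, against 5390 in that transcript.

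With group means removed, other genes came nearest to each member. The highest r of deviations over the 9 libraries was 0.980 for Samd11 with Zfp397, 0.964 for Mtmr7 with Gm45095, 0.948 for Osgin2 with Fzd1, 0.987 for St8sia4 with Cpm and 0.996 for Ttc39c with Spsb1. These were the highest of 12424 genes each, so they describe these libraries only.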
